A study of Mus musculus with 9 samples.

Results

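The genes of MHC class II antigen presentation were examined in RNA sequencing data from sorted macrophages of the mouse lung. The set, chosen by gene symbol, was *H2-Aa*, *H2-Ab1*, *H2-Eb1*, *H2-DMa*, *H2-DMb1*, *H2-DMb2*, *H2-Oa*, *H2-Ob*, *Cd74* and *Ciita*, which are 10 of the 24346 gene symbols measured. All 10 were found and all 10 passed the filter on low values. The animals were female C57BL/6 mice at postnatal week 10. In the tumor-bearing mice the left lung had been inoculated with LLC cells (Lewis lung carcinoma), a lung cancer line of C57BL/6 origin that stably expressed tdTomato, a red fluorescent protein, while the control mice had received vehicle. Each group held 3 samples. Ctrl-AM were alveolar macrophages (AMs) of control mice, Tumor-AM were AMs of tumor-bearing mice, and Tumor-macrophage were the tumor-associated macrophages (TAMs) of tumor-bearing mice. All were taken as CD45+ autofluorescent F4/80+ cells, of which AMs were described as Siglec-F+ CD11b- and TAMs as Siglec-F- CD11b+. Control and tumor-bearing mice were bred separately, and breeding and tumor therefore cannot be told apart.

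MHC class II molecules carry peptides from ingested proteins to the surface of antigen-presenting cells, where CD4+ T cells read them. An alpha and a beta chain pair in the endoplasmic reticulum with the invariant chain, the product of *Cd74*, which fills the peptide groove. In lysosomal compartments proteases trim the invariant chain to a short fragment, and H2-DM exchanges this fragment for peptide, while H2-DO restrains H2-DM. *Ciita* encodes the master coactivator of this gene set. It does not bind DNA itself and is recruited to a complex of RFX, CREB and NF-Y factors on paired X and Y boxes in class II promoters. Interferon-gamma induces *Ciita*. AMs in the healthy mouse lung are known for low class II levels compared with dendritic cells and interstitial macrophages.

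The promoter is the part of these genes on which their shared regulation is known to act, so the RefSeq promoter windows (GRCm38.p6, 250 bases before to 50 bases after the start) were searched. Windows of 7 members were used, and *H2-Ab1*, *Cd74* and *Ciita* were not used here. The search was for the letters CNNNNAAC, a shortened X box, followed after 15 to 30 bases by TGATTGG, which holds the inverted CCAAT of the Y box, on both strands and without overlap of the motifs. These letters were chosen after the members' promoters had been read. A high share among the members therefore follows in part from this choice, and enrichment over all genes was not tested. The pair was found in 6 of the 7 members, and in 110 of all 27025 genes with a window (0.407%). TGATTGG alone was in 7.82% of windows. The stretches below are on chromosome 17, 5′ to 3′ on the gene's strand, with the 2 motifs in capitals and 12 bases on each side, and are shown because they are a feature these 6 members share.
H2-Aa (chr17:34287855-34287919, minus): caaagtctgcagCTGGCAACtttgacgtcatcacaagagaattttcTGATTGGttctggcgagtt
H2-Eb1 (chr17:34305761-34305824, plus): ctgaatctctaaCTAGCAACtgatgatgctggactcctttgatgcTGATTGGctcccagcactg
H2-DMb1 (chr17:34153082-34153146, plus): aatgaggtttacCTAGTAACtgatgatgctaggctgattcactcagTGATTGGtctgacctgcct
H2-DMb2 (chr17:34145111-34145175, plus): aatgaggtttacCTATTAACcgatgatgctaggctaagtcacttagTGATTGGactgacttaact
H2-Oa (chr17:34092288-34092352, plus): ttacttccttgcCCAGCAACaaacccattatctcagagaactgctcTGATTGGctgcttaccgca
H2-Ob (chr17:34238803-34238864, plus): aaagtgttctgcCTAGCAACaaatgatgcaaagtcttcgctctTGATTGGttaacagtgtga

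The distance between the motifs was 26 bases in *H2-Aa*, *H2-DMb1*, *H2-DMb2* and *H2-Oa*, 25 in *H2-Eb1* and 23 in *H2-Ob*. *H2-Oa* held a further X match 22 bases from the same Y motif, which is not set in capitals. *H2-DMa* had 2 windows, and neither held the pair in these letters. *H2-Eb2*, a class II gene outside the set, also held the pair, with 25 bases between the motifs. *H2-DMb1* and *H2-DMb2* are near copies, and in the stretches shown their first 12 bases were the same.

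Values were FPKM (fragments divided by transcript length and by the number of mapped fragments), so levels of different genes can be compared per length. Their sum over genes was 635560 to 785745 per sample, and depth, estimated from the steps between low values, was 11100000 to 14000000 reads. Changes are differences in log2(FPKM + 1) ± SE from limma, which understate the change of low genes, with p-values adjusted by the Benjamini-Hochberg method over the 10686 genes tested. Errors of FPKM are SD over 3 samples. *Siglecf*, the gene of the gating protein, had 201 ± 7.95 FPKM among Ctrl-AM samples, 172 ± 10.3 among Tumor-AM and 0.651 ± 0.19 among Tumor-macrophage samples. The 5 general macrophage markers summed to between 1519 and 2968 FPKM in all 9 samples, mostly from *Cd68*. In Tumor-macrophage against Tumor-AM *Adgre1* (1.69), *Csf1r* (2.01) and *Fcgr1* (1.82) were higher, *Mertk* (-1.38) was lower and *Cd68* (0.14) was not called. The 4 TAM markers named by the study summed to at most 14.3 FPKM in AMs against at least 149 in Tumor-macrophage.

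Summed, the classical chains and the invariant chain made up most of the set in all populations. Gene by gene, each of them was above every other member only among Tumor-macrophage samples. *H2-Eb1* was below *H2-DMa* in every AM sample, with a mean of 112 against 349 for Ctrl-AM and 157 against 283 for Tumor-AM. *H2-Aa*, which encodes the alpha chain of I-A, was at 299, 438 and 426 FPKM in Ctrl-AM, at 702, 288 and 501 in Tumor-AM, and at 9709, 6838 and 8364 in Tumor-macrophage. *H2-Ab1*, the beta chain of I-A, was at 525, 773 and 784 FPKM in Ctrl-AM, at 1316, 573 and 946 in Tumor-AM, and at 18707, 14175 and 16872 in Tumor-macrophage. *H2-Eb1*, the beta chain of I-E, was at 87.4, 123 and 126 FPKM in Ctrl-AM, at 206, 92.4 and 172 in Tumor-AM, and at 4898, 3494 and 4198 in Tumor-macrophage. For all 3 genes every Tumor-macrophage sample lay far above every AM sample, while the ranges of the AM groups overlapped and that of Tumor-AM was the wider. *Cd74* was at 1208, 1746 and 1743 FPKM in Ctrl-AM, at 2963, 1137 and 2046 in Tumor-AM, and at 31925, 23273.5 and 27795 in Tumor-macrophage. Its groups were arranged in the same way, and in the Tumor-macrophage samples *Cd74* ranked between 2 and 3 among all genes by FPKM, against between 19 and 62 in AMs.

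**Figure D1:**
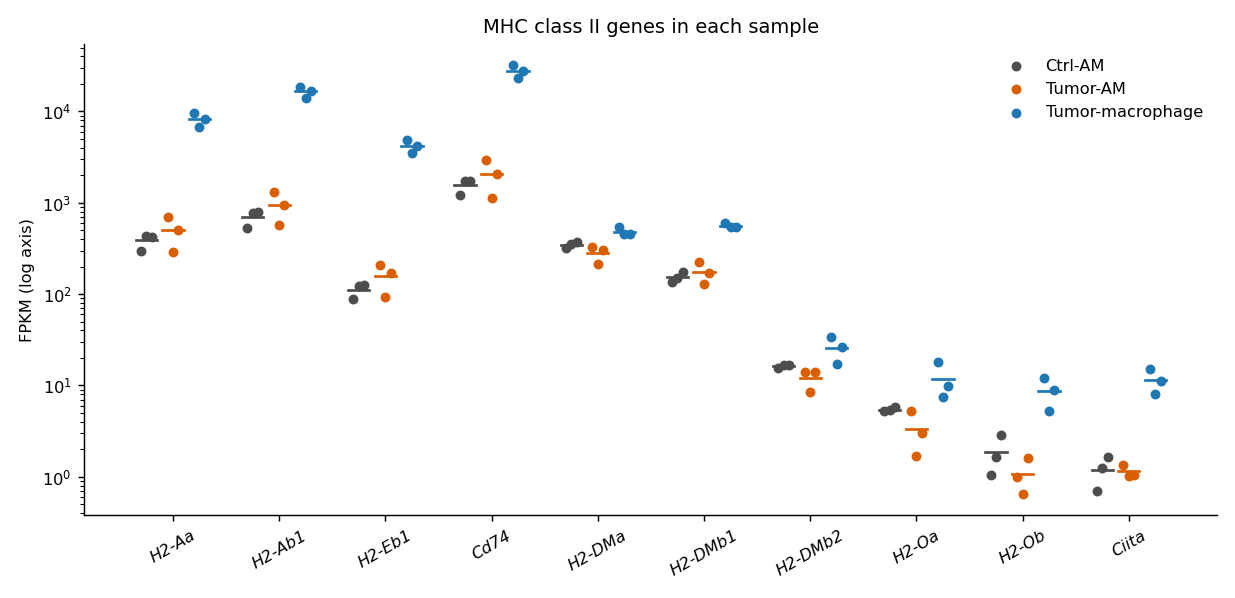
FPKM (log axis) of the 10 members, side by side, with 1 point per sample and a line at the mean of each group of 3 samples. For every gene all Tumor-macrophage points lie above all AM points, and the AM groups overlap for all but *H2-DMb2*.

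In Tumor-macrophage the mean FPKM of *H2-Aa* was 16.7 times that in Tumor-AM (log2 change 4.14 ± 0.28, adjusted p = 5.91e-07). The corresponding ratio was 17.6 for *H2-Ab1* (4.20 ± 0.27, adjusted p = 3.49e-07), 26.8 for *H2-Eb1* (4.80 ± 0.26, adjusted p = 1.22e-07) and 13.5 for *Cd74* (3.85 ± 0.29, adjusted p = 1.53e-06). Against Ctrl-AM the ratios of means were 21.4, 23.9, 37.4 and 17.7 in the same order of genes, with log2 changes of 4.42, 4.59, 5.22 and 4.15 and adjusted p-values from 4.6e-08 to 6.64e-07. In these bulk samples, fewer cells of a type with class II RNA and less such RNA per cell cannot be told apart. Together these 4 genes made up 6.42% to 8.44% of the summed FPKM of Tumor-macrophage samples, against 0.322% to 0.484% in Ctrl-AM and 0.286% to 0.746% in Tumor-AM.

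None of these 4 genes passed the threshold between the AM groups. In Tumor-AM against Ctrl-AM the log2 change was 0.29 ± 0.28 for *H2-Aa* (95% interval -0.34 to 0.91, adjusted p = 0.589), 0.39 ± 0.27 for *H2-Ab1* (-0.20 to 0.98, adjusted p = 0.415), 0.42 ± 0.26 for *H2-Eb1* (-0.16 to 1.00, adjusted p = 0.370) and 0.30 ± 0.29 for *Cd74* (-0.35 to 0.96, adjusted p = 0.588). Tumor-AM 2 was the lowest and Tumor-AM 1 the highest of their group for each of the 4 genes. Without Tumor-AM 2, *H2-Eb1* passed the threshold (0.76, adjusted p = 0.0337), and without Tumor-AM 1 the changes of *H2-Aa* and *Cd74* were -0.0071 and -0.02.

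H2-DM, the peptide exchange factor, has an alpha chain from *H2-DMa* and a beta chain from *H2-DMb1* or *H2-DMb2*. *H2-DMa* was at 319.9, 357 and 369.9 FPKM in Ctrl-AM, at 331, 214 and 304 in Tumor-AM, and at 537, 455 and 454 in Tumor-macrophage. *H2-DMb1* was at 135, 149 and 175 FPKM in Ctrl-AM, at 223, 128 and 171 in Tumor-AM, and at 607, 537 and 545 in Tumor-macrophage. *H2-DMb2* was at 15.5, 16.7 and 16.8 FPKM in Ctrl-AM, at 13.9, 8.55 and 13.9 in Tumor-AM, and at 33.7, 16.95 and 26.3 in Tumor-macrophage. All 3 were highest in Tumor-macrophage without overlap, but the Tumor-macrophage 2 value of *H2-DMb2* was only just above the highest Ctrl-AM value. In Tumor-AM all *H2-DMb2* values were below those of Ctrl-AM.

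Against Tumor-AM, *H2-DMa* was 1.70-fold higher in Tumor-macrophage (log2 change 0.79 ± 0.15, adjusted p = 0.00111), *H2-DMb1* 3.23-fold (1.72 ± 0.17, adjusted p = 1.17e-05) and *H2-DMb2* 2.12-fold (1.00 ± 0.23, adjusted p = 0.00449). Against Ctrl-AM, *H2-DMb1* rose by 1.88 ± 0.17 (adjusted p = 4.8e-06) and *H2-DMa* by 0.46 ± 0.15 (adjusted p = 0.0202), and *H2-DMb2* had 0.57 ± 0.23 (adjusted p = 0.058). The *H2-DMa* call depended on the scaling, with 0.23 (adjusted p = 0.23) after rescaling to the same sum in every sample. Between the AM groups *H2-DMa* had a change of -0.32 ± 0.15 (95% interval -0.65 to 0.0012, adjusted p = 0.205), *H2-DMb1* 0.16 ± 0.17 (adjusted p = 0.638) and *H2-DMb2* -0.43 ± 0.23 (adjusted p = 0.292). Of all windows of 75 bases, the read length, in the transcripts of *H2-DMb1* and *H2-DMb2*, 15.8% and 16.1% were shared with another gene, nearly always with each other, so the division of reads between these copies is uncertain. The other 8 members shared none.

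H2-DO, the inhibitor of H2-DM known mainly from B cells, is made of the chains encoded by *H2-Oa* and *H2-Ob*. *H2-Oa* was at 5.23, 5.34 and 5.77 FPKM in Ctrl-AM, at 5.24, 1.71 and 3.04 in Tumor-AM, and at 18.0, 7.49 and 9.81 in Tumor-macrophage. *H2-Ob* was at 1.06, 1.65 and 2.84 FPKM in Ctrl-AM, at 0.983, 0.648 and 1.60 in Tumor-AM, and at 12.1, 5.19 and 8.85 in Tumor-macrophage. Both were lowest on average in Tumor-AM, with AM ranges that overlapped, and both had a Tumor-macrophage 1 value well above the other two. These levels rest on few reads, an estimated 19 to 178 per sample for *H2-Oa* and 20 to 333 for *H2-Ob*.

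*H2-Oa* was 3.54-fold higher in Tumor-macrophage than in Tumor-AM (log2 change 1.56 ± 0.32, adjusted p = 0.00216) and *H2-Ob* 8.10-fold (2.19 ± 0.30, adjusted p = 0.000136). Against Ctrl-AM the changes were 0.90 ± 0.32 (adjusted p = 0.0347) and 1.75 ± 0.30 (adjusted p = 0.000569), of which that of *H2-Oa* was called in 11 of 18 alternative settings. Between the AM groups *H2-Oa* had -0.66 ± 0.32 (95% interval -1.37 to 0.055, adjusted p = 0.24) and *H2-Ob* -0.43 ± 0.30 (-1.10 to 0.23, adjusted p = 0.422). B cell and dendritic cell markers had the same order of groups. Summed FPKM of 7 B cell markers was 15.3 to 19.2 for Ctrl-AM, 3.9 to 9.35 for Tumor-AM and 34.3 to 64.8 for Tumor-macrophage, and that of 8 dendritic cell markers was 21.5 to 25.3, 11.7 to 19.4 and 38.5 to 75.6. All 5 B cell markers that could be tested and 4 of 6 dendritic cell markers were higher in Tumor-macrophage than in Tumor-AM, where 24.2% of all genes were. In Tumor-AM against Ctrl-AM, 1 of the 5 B cell markers, *Cd79a* (-1.20), and 1 of the 6 dendritic cell markers, *Cd209a* (-1.33), were called lower. The others tested were not called. Of all 10686 genes tested, 340 were called lower there. *Pax5*, a defining B cell factor, was listed at 0 in 6 of 9 samples, among them all 3 Tumor-AM samples. The highest sum of both lists was in Tumor-macrophage 1 and the lowest in Tumor-AM 2, which were also the samples with the highest and lowest value of their own group for all 10 members. Ctrl-AM 1, the lowest of its group for all 10 members, had the highest dendritic cell sum of its group (25.3 FPKM) but the lowest B cell sum (15.28, against 15.35 in Ctrl-AM 3). In Tumor-AM the dendritic cell sum was highest in Tumor-AM 1, like 9 of 10 members, but the B cell sum in Tumor-AM 3 (9.35). Tumor-macrophage 2, lowest of its group for 9 of 10 members, also had the lowest sums of its group. The part of these cells in the class II levels was not tested.

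*Ciita*, the coactivator, was at 0.690, 1.24 and 1.63 FPKM in Ctrl-AM, at 1.34, 1.03 and 1.05 in Tumor-AM, and at 15.3, 8.14 and 11.2 in Tumor-macrophage. The Tumor-AM values all lay inside the Ctrl-AM range, and the lowest Tumor-macrophage value was well above both. The gene was 10.1-fold higher in Tumor-macrophage than in Tumor-AM (log2 change 2.51 ± 0.22, adjusted p = 4.33e-06) and 9.73-fold higher than in Ctrl-AM (2.50 ± 0.22, adjusted p = 3.53e-06). Between the AM groups the change was -0.01 ± 0.22, with a 95% interval from -0.50 to 0.48 (adjusted p = 0.987), on an estimated 49 to 131 reads per AM sample. *Ciita* lies on chromosome 16 (10480059 to 10528418, plus strand), and its exons overlap those of *Dexi* on the opposite strand. Whether reads were counted by strand is not given in the sources used here.

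Across the set, 0 of 10 members passed the threshold between Tumor-AM and Ctrl-AM in limma, where 10.3% of all tested genes did, and 0 had an unadjusted p under 0.05. Of the members 5 had a positive and 5 a negative change, with a median of 0.07 against 0.01 over all genes tested. The positive ones were the 3 classical chains, *Cd74* and *H2-DMb1*. Only *H2-DMb2* had groups without overlap, with lower values in Tumor-AM. Over all genes 32.3% had no overlap, and 13.4% none with lower values. In Tumor-macrophage against Tumor-AM all 10 members were higher, where 48.6% of all genes were called and 24.2% were called higher. All 10 had groups without overlap, as did 55.3% of all genes, with 27.6% higher. Their changes ranged from 0.79 to 4.80, with a median of 2.35 against 0.00 over all genes. Against Ctrl-AM 9 of 10 were higher, where 54.8% of genes were called and 27.7% called higher, with a median of 2.19 against -0.01. Again all 10 did not overlap, as did 62.3% of all genes, with 31.1% higher. Both TAM comparisons use the same Tumor-macrophage samples. Rescaling each sample to the same sum brought the median of all genes from 0.01 to -0.11 in Tumor-AM against Ctrl-AM and from -0.01 to -0.21 in Tumor-macrophage against Ctrl-AM, and then 0, 10 and 7 members were called in the 3 comparisons. In the last of these the split of all calls went from 2960 higher and 2900 lower to 2120 higher and 4422 lower.

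**Figure D2:**
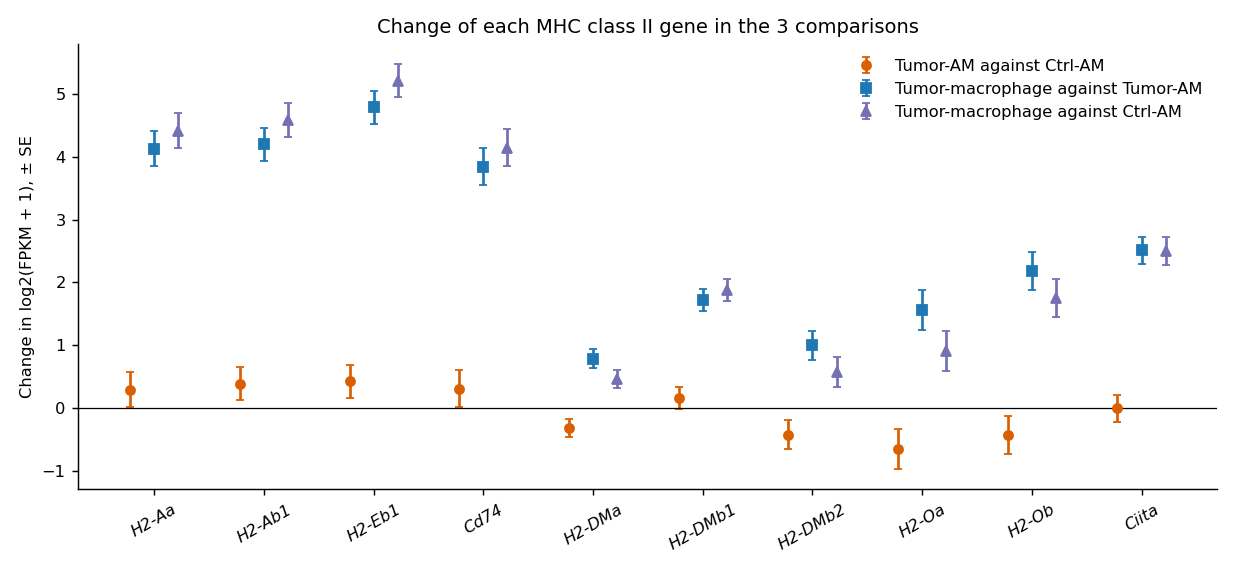
Change in log2(FPKM + 1) of each member in the 3 comparisons, as points with bars for the SE of the fit and 1 colour per comparison. Changes between the AM groups lie between -0.66 and 0.42, and changes in Tumor-macrophage against Tumor-AM between 0.79 and 4.80.

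The members also varied together among samples of 1 group. Ctrl-AM 1 was the lowest of its group for 10 of 10 members, Tumor-AM 2 for 10 of 10, and Tumor-macrophage 1 was the highest for 10 of 10. The share of all genes with the same order was not counted, so a shift of the whole library cannot be told apart from a trait of the members. The summed level of 8 AM markers, dominated by *Chil3*, was highest of its group in Ctrl-AM 1 (30214 FPKM) and in Tumor-AM 2 (38651 FPKM). Among Tumor-macrophage samples this sum was highest in Tumor-macrophage 2 (587 FPKM), the lowest of its group for 9 of 10 members. After the group means were taken out, each member's correlation with the mean of the set over 9 samples was between 0.76 (*H2-Ob*) and 0.97 (*H2-Eb1*). The points of this correlation share library and depth, and the mean includes the member itself.

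Ratios of member FPKM within a sample do not depend on scaling between samples, but the log2 differences and their tests, with 1 added to each term, do so for low genes. With 3 samples against 3 the exact permutation test, two-sided, cannot go below p = 0.1, and adjusted over the 24 ratio comparisons that value is 0.126. The beta to alpha ratio of H2-DM, (*H2-DMb1* + *H2-DMb2*)/*H2-DMa*, had a mean of 0.485 ± 0.029 for Ctrl-AM, 0.654 ± 0.055 for Tumor-AM and 1.22 ± 0.033 for Tumor-macrophage. No 2 groups overlapped, and each comparison had p = 0.1 in the exact permutation test. *H2-DMb2*/*H2-DMb1* had the reverse order, from 0.107 ± 0.010 in Ctrl-AM to 0.0701 ± 0.0097 in Tumor-AM and 0.0451 ± 0.0123 in Tumor-macrophage, again without overlap (exact permutation p = 0.1 each).

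Ratios among the classical chains and *Cd74* differed by less on the log2 scale than those with *H2-DMa*. *H2-Aa*/*H2-Ab1* was 0.560 ± 0.0135, 0.522 ± 0.0169 and 0.499 ± 0.0185 in Ctrl-AM, Tumor-AM and Tumor-macrophage. *H2-Eb1*/*H2-Ab1* was 0.162 ± 0.0038 and 0.166 ± 0.0132 in the AM groups, which overlapped, and 0.252 ± 0.0083 in Tumor-macrophage, a difference of 0.59 on the log2 scale from Tumor-AM. *Cd74*/*H2-Ab1* was 2.26 ± 0.038, 2.13 ± 0.137 and 1.67 ± 0.036, so the invariant chain exceeded the I-A beta chain least in Tumor-macrophage. *H2-DMa*/*H2-Ab1* was lower in each group in turn, without overlap, from 0.514 ± 0.082 in Ctrl-AM to 0.315 ± 0.061 in Tumor-AM and 0.0292 ± 0.0026 in Tumor-macrophage. The log2 differences were -0.71 and -3.42 (exact permutation p = 0.1 each). The ratio of DO to DM genes was 0.0140 ± 0.0011, 0.00905 ± 0.0022 and 0.0188 ± 0.0066, lowest in Tumor-AM without overlap, and *H2-Ob*/*H2-Oa* was 0.335 ± 0.147, 0.365 ± 0.170 and 0.756 ± 0.127.

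**Figure D3:**
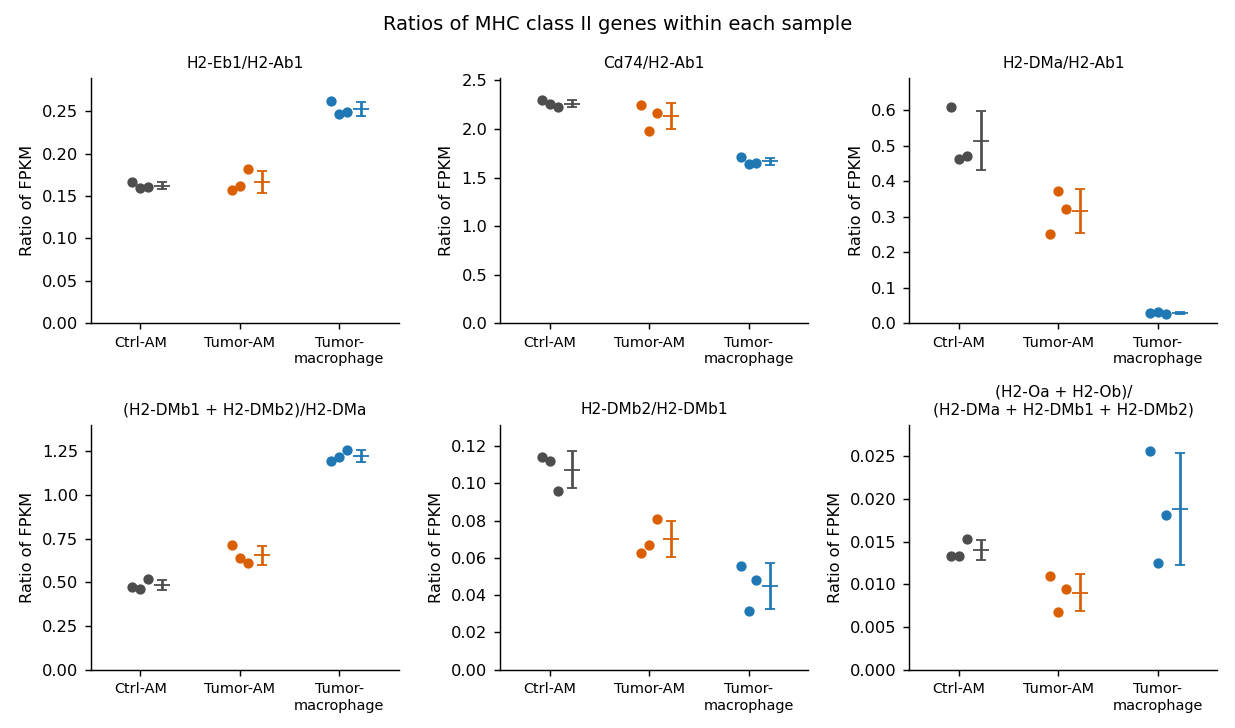
Of the ratios of member FPKM, 6 are shown, each computed within a sample (linear axes from 0), 1 panel per ratio, with 1 point per sample and beside them the mean ± SD of 3 samples. The beta to alpha ratio of H2-DM averaged 0.485, 0.654 and 1.22 from left to right, and *H2-DMa*/*H2-Ab1* was 0.514, 0.315 and 0.0292.

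The members other than *Cd74* and *Ciita*, 8 genes, lie together in the class II region of chromosome 17, between 34092340 and 34344645 in GENCODE vM21 (GRCm38, also called mm10), a stretch of 252.3 kb in which 15 genes annotated as protein-coding or polymorphic were considered. Of the 7 neighbours 5 could be tested. *Psmb8* and *Psmb9*, subunits of the immunoproteasome, and *Tap1*, a chain of the peptide transporter, serve MHC class I. In Tumor-AM they rose against Ctrl-AM by 0.35 ± 0.08 (adjusted p = 0.025), 0.37 ± 0.08 (adjusted p = 0.0196) and 0.87 ± 0.15 (adjusted p = 0.00526). Only *Tap1* held this call after rescaling to the same sum. The neighbours *Tap2* (0.25, adjusted p = 0.264) and *Brd2* (0.01, adjusted p = 0.964) were not called. Of the 8 members of the region 0 were called, where 10.3% of all tested genes were. In Tumor-macrophage against Tumor-AM *Psmb8*, *Psmb9* and *Tap1* rose by 1.25, 1.60 and 2.52, and *Tap2* by 0.53, while *Brd2*, a chromatin reader, had 0.24 (adjusted p = 0.102). *H2-Eb2* stayed below the filter, with means of 0.0760 and 0.0845 FPKM in the AM groups and 0.438 in Tumor-macrophage. *H2-Ea-ps*, the I-E alpha gene that is not functional in C57BL/6 mice, was listed at 0 in all 9 samples. The *H2-DMa* exons overlap *Brd2* and those of *H2-Oa* overlap *BC051537*, each on the opposite strand.

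**Figure D4:**
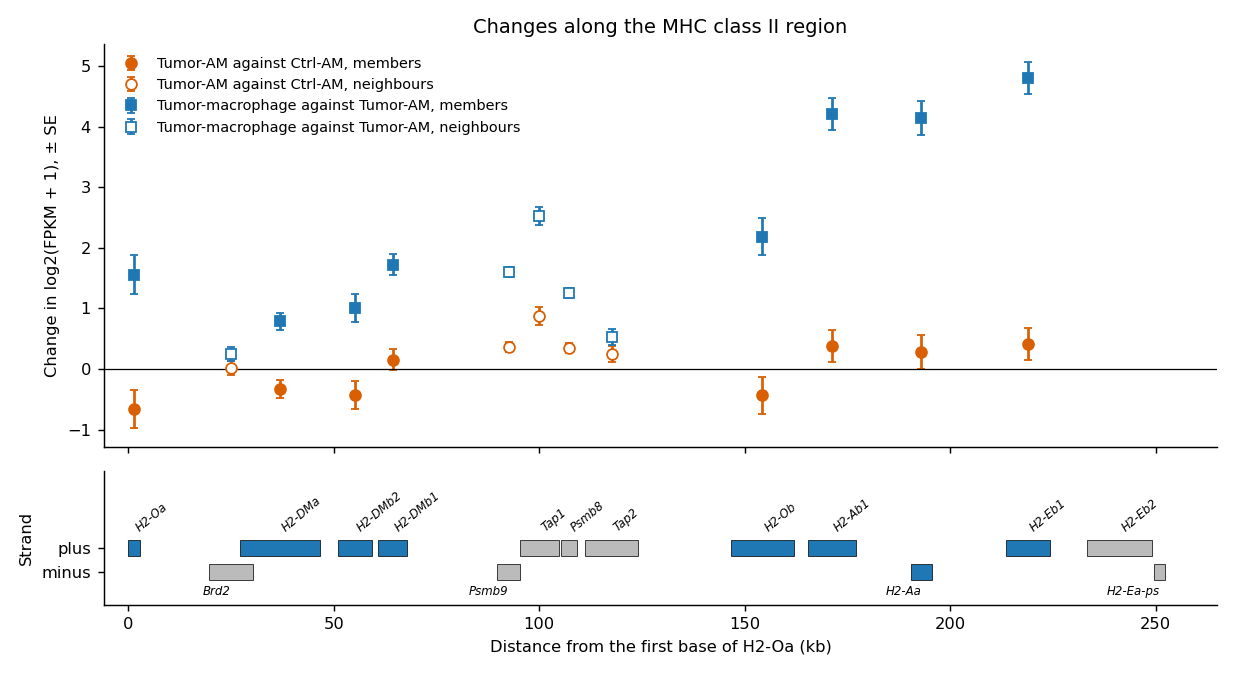
Change in log2(FPKM + 1) ± SE of members (filled) and neighbours (open) by distance from the first base of *H2-Oa* in kb, with gene positions and strands below (members blue, neighbours grey). In Tumor-macrophage against Tumor-AM the largest changes, 4.14 to 4.80, are those of *H2-Ab1*, *H2-Aa* and *H2-Eb1*, and between the AM groups *Tap1*, *Psmb8* and *Psmb9* lie between 0.35 and 0.87.

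The 22 other genes of the pathway were all tested. In Tumor-AM 7 of 22 were higher and 0 lower than in Ctrl-AM, with a median of 0.21. Of these 7, 5 belong to the 6 lysosomal processing genes. *Ctss*, the protease of the late steps of invariant chain trimming, rose from 4219 ± 295 to 6196 ± 653 FPKM (0.55 ± 0.12, adjusted p = 0.0182). The legumain gene *Lgmn* rose from 146 ± 14.9 to 232 ± 21.4 FPKM (0.67 ± 0.09, adjusted p = 0.00215), and the cathepsin genes *Ctsl* (0.62), *Ctsb* (0.56) and *Ctsd* (0.61) also passed, while *Ifi30*, a lysosomal thiol reductase, had -0.04. The other two belong to the 6 genes of interferon-gamma signalling. *Irf1*, an interferon-induced transcription factor, rose from 38.8 ± 4.28 to 87.9 ± 25.7 FPKM (1.13 ± 0.18, adjusted p = 0.0039) and the receptor chain gene *Ifngr2* by 0.36. None of 7 genes of the promoter-binding complex and none of 3 genes of surface turnover was called. With 10.3% of all genes called, the absence of calls in lists of 7 and 3 genes cannot be told apart from other genes. Over all 10686 genes tested, 760 were called higher and 340 lower. Whether the lysosomal genes differ from other genes as a set was not tested. Rescaling to the same sum left 6 of the 7 pathway calls, without *Ifngr2*. Of the 4 TAM markers, *Ccr2* (0.97 ± 0.19, adjusted p = 0.00965) and *Ly6c2* (0.50 ± 0.09, adjusted p = 0.00867) also rose in Tumor-AM, and the sum of the 4 went from between 6.58 and 8.35 FPKM to between 11.7 and 14.3. The part of TAMs in the Tumor-AM levels was not tested.

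In Tumor-macrophage against Tumor-AM 14 of 22 pathway genes were higher and 1 lower, with a median of 0.44. Over all genes tested 48.6% were called and 24.2% called higher. Of the 6 interferon-gamma genes 5 were higher, among them *Ifngr2* (1.42), *Jak2* (0.86) and *Socs1*, a feedback inhibitor (2.52). Of the 6 lysosomal genes 5 were higher, led by *Lgmn* (1343 ± 66.1 FPKM, 2.53) and *Ctsb* (2.03), while *Ctsd* had -0.30 (adjusted p = 0.123). Among the promoter-binding factors *Nfya* (0.43, adjusted p = 0.0487) and *Nfyb* (0.46, adjusted p = 0.0266) were higher. *Nfyc* (-0.58) was lower, and *Rfx5*, *Rfxap*, *Rfxank* and *Creb1* were not called. Of the surface turnover genes, *March1*, a ubiquitin ligase that sends class II molecules to lysosomes, rose by 0.31 and *Cd83*, which opposes it, by 2.2. Against Ctrl-AM 15 of 22 were higher and 2 lower, where 54.8% of all genes were called and 27.7% called higher. After rescaling to the same sum the 2 comparisons gave 10 higher and 2 lower, and 9 higher and 2 lower, and no gene called in the main fit changed sign. Against Tumor-AM the calls of *Nfya*, *Nfyb*, *March1* and *Ifngr1* were lost by this rescaling.

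**Figure D5:**
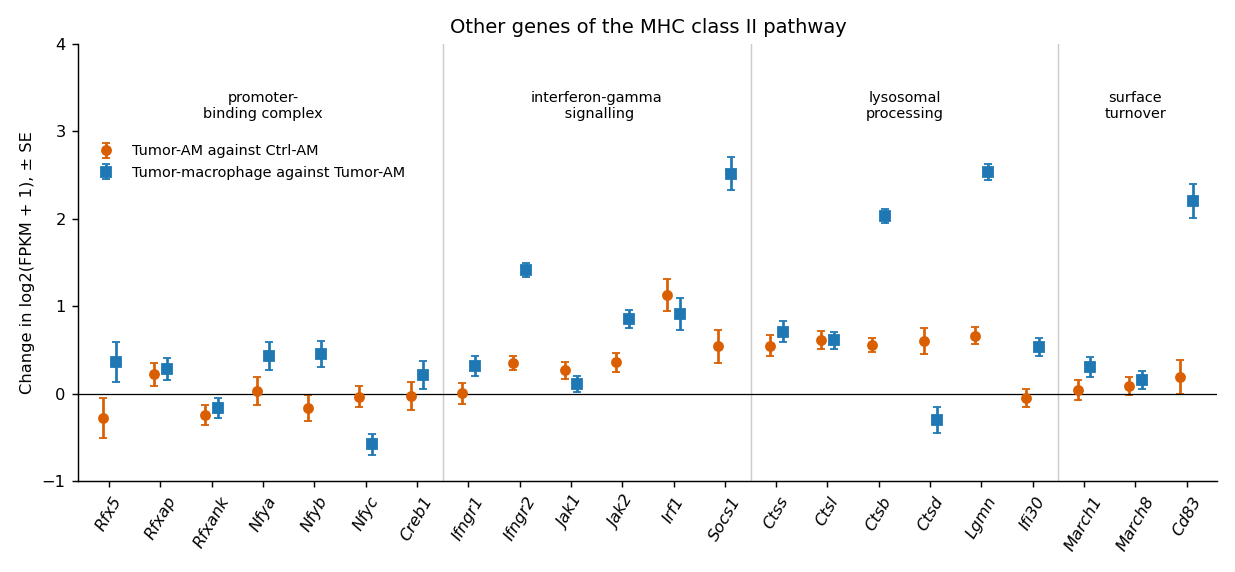
Change in log2(FPKM + 1) ± SE of 22 other class II pathway genes, grouped by role, in Tumor-AM against Ctrl-AM and in Tumor-macrophage against Tumor-AM. Lysosomal and interferon-gamma genes lie mostly above 0 in both comparisons, and the promoter-binding factors lie between -0.58 and 0.46.

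The genes whose pattern was most like that of the set were sought by Pearson correlation of log2(FPKM + 1) with the mean standardised level of the 10 members over 9 samples. They were *Slc9a9* (r = 0.990), *Cd55* (0.987), *Cyb5r1* (0.985), *D930015E06Rik* (0.984) and *Tmem176a* (0.984). *Tmem176a* had 5.05 ± 0.861 FPKM in Ctrl-AM, against 3.82 ± 2.77 in Tumor-AM and 352 ± 108 in Tumor-macrophage. After the group means were taken out, the closest were *9130019O22Rik* (0.992), *Itpripl1* (0.988), *Ccng2* (0.973), *Pfkfb1* (0.967) and *Atrnl1* (0.966), no gene of which was among the first 5. These values describe 9 samples in 3 groups, whose points share library and depth. They are the highest picked from all genes tested, which alone favours high values, and were not tested. After the group means were taken out, *9130019O22Rik* and *Itpripl1* were above every member's own correlation with the mean (0.76 to 0.97). *Pfkfb1* was low, with group means from 0.821 to 1.23 FPKM.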

How the data were processed

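Sorted AMs and TAMs of 3 groups of 3 samples were profiled by RNA sequencing. According to their methods, the authors used SMART-Seq HT cDNA and Nextera libraries, single-end reads of 75 bases, TopHat, Bowtie2 and SAMtools on mm10, and Cufflinks. The submitters' processing notes name TopHat2 2.1.1, Bowtie2 and Cuffdiff 2.2.1. The authors deposited FPKM per gene symbol and sample, without counts. Annotation, strand and treatment of reads mapping to several genes are not given in the sources used here. FPKM does not correct for a few abundant RNAs that take up reads in 1 population. The study gives 3 mice per population, and the labels do not name the mice, so p-values measure the spread between these samples.

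Genes with at least 1 FPKM in at least 3 of 9 samples were tested as log2(FPKM + 1) with limma 3.58.1 (R 4.3.3, intensity trend, all 9 samples sharing 1 spread, two-sided), with Benjamini-Hochberg adjustment over all 10686 genes and 0.05 as the threshold. Ratios of members are given as ratios of FPKM and were compared on the log2 scale, with 1 added to each term, by exact permutation tests. Python 3.11.15, numpy 2.4.6, scipy 1.17.1 and pandas 2.3.3 were used, and matplotlib 3.10.9 for plots. The fit was tested on simulated data. Depth was estimated from the steps between low FPKM values of 1 gene in different samples, and read numbers derived from it cover counting error only, since PCR copies are not independent molecules. Named genes were the members, the pathway, neighbour and marker lists, and the 5 genes with the highest correlation by each measure. Of the pathway list, 1 gene is not reported here. The marker lists were 8 AM, 4 TAM, 5 macrophage, 8 dendritic cell, 8 B cell (7 in the files), 6 type II epithelial and 4 T cell (3 in the files) genes. Members and lists were chosen with earlier results of these data known. Alternatives were another pseudocount, filters, scalings, a prior variance without trend, fits with only the 2 groups compared, a 2-fold requirement, a block for the replicate number, and fits that leave out 1 sample each. Positions come from GENCODE vM21 and promoter sequences from RefSeq.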

Additional observations from a re-analysis of the deposited data

How the results depend on the processing

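In Tumor-macrophage against Tumor-AM all 10 members kept their call and direction in 18 of 18 other fits. A 2-fold requirement, counted apart from these, left 0, 9 and 7 members in the 3 comparisons. It left 208 of 1100 genes in Tumor-AM against Ctrl-AM, 1827 of 5191 in Tumor-macrophage against Tumor-AM and 2150 of 5860 in Tumor-macrophage against Ctrl-AM. Leaving out 1 sample at a time gave 535 to 1255 genes and 0 to 1 members called between the AM groups. The 1 member was *H2-Eb1*, without Tumor-AM 2.

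Directions between the AM groups were not settled for the members near 0. Leaving out 1 sample, the change ranged from -0.0165 to 0.67 for *Cd74*, -0.0071 to 0.63 for *H2-Aa*, -0.0395 to 0.36 for *H2-DMb1*, -0.18 to 0.14 for *Ciita* and -0.0303 to 0.0762 for the log2 ratio *H2-Eb1*/*H2-Ab1*. With a pseudocount of 0.1, *Ciita* had 0.013. In Tumor-macrophage against Ctrl-AM *H2-DMa* was called in 13 of 18 settings, *H2-Oa* in 11 and *H2-DMb2* in 4. The call of *H2-DMa* was lost without Ctrl-AM 1 (adjusted p = 0.0737) or Tumor-macrophage 1 (adjusted p = 0.0744), and that of *H2-Oa* without any 1 of the Ctrl-AM samples, Tumor-macrophage 1 (adjusted p = 0.129) or Tumor-macrophage 3. *H2-DMb2* gained one without Tumor-macrophage 2 (0.83) or Tumor-AM 2.

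Rescaling to the same sum changed the split of calls between the AM groups from 760 higher and 340 lower to 468 higher and 841 lower, and quantile normalization to 607 and 446. Correlations of same-numbered samples' deviations from their group means were -0.0615 to 0.159. They were not all above 0.1, so the samples were not treated as paired, and whether samples of 1 number share a mouse is not stated. With the replicate number as a block 938, 5069 and 5772 genes and 0, 10 and 10 members were called in the 3 comparisons, with *H2-DMb2* gaining a call against Ctrl-AM (0.57, adjusted p = 0.0239). In 12 of 18 comparisons a sample correlated best with its own number, a hint of a link by number from the data and not from the design. Each pair of groups entered in both directions. Ctrl-AM, from other mice than the tumor samples, also entered, so this count cannot show shared mice. Depth limits *H2-Oa*, *H2-Ob* and *Ciita*, and 3 samples per group limit the AM comparison.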

Other observations

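Markers of other cells than those described with the H2-DO genes were also measured. Summed FPKM of 6 type II epithelial markers was 37.4 to 80.3 in Ctrl-AM, 31.2 to 66.1 in Tumor-AM and 13.2 to 74.6 in Tumor-macrophage. It was 74.6 in Tumor-macrophage 2, against 13.2 in Tumor-macrophage 1 and 17.7 in Tumor-macrophage 3. None of the 3 epithelial markers that could be tested was called in any comparison. *Sftpb*, which was not tested, had means of 0.696, 0.446 and 0.213 FPKM without overlap between the groups. Summed FPKM of 3 T cell markers was 2.15 to 3.50, 2.81 to 6.67 and 6.09 to 14.0 in the same order, with 2 of 3 higher in Tumor-macrophage than in Tumor-AM and 3 of 3 higher than in Ctrl-AM. Over all genes tested, 24.2% and 27.7% were called higher in these comparisons. The summed level of 8 AM markers was 24559 to 30214 in Ctrl-AM, 21644 to 38651 in Tumor-AM and 259 to 587 in Tumor-macrophage.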
